A study of Mus musculus with 20 samples.

Results

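The genes described here are 10 macrophage and myeloid genes, chosen by symbol because several of them were lower in exposed embryos in earlier results from these arrays. They are Csf1r, Csf2rb, Cx3cr1, Tyrobp, Fcer1g, Ptprc, Cd68, Mrc1, Mpo and Lyz2, and they were measured by 15 of the 38367 probe sets that carry a gene symbol, or as 10 of 20794 genes. The probe set of a gene that was brightest on average over the 20 arrays is its main one, and the 5 others are given beside it. All samples were conceptuses of CD-1 mice, an outbred stock, taken from untreated dams on gestational day 8 and grown in whole embryo culture for 24 h, to day 9. The medium held 0.01% DMSO (control) or 100 µg/ml mono-2-ethylhexyl phthalate (MEHP), a metabolite of the plasticizer di-2-ethylhexyl phthalate. Embryo and visceral yolk sac were then separated, and conceptuses were classed by whether they had a neural tube defect (NTD), a failure of the neural folds to close. Each tissue had 4 control arrays, of which 1 came from conceptuses with NTD, and 6 MEHP arrays, of which 3 did. The labels do not say whether an array holds 1 conceptus or several, or from which litter, so the p-values measure only the spread between these samples, which may be partly technical.

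Values are deposited log2 levels on Affymetrix mouse arrays, so a difference of 1 is a doubling of signal, and the number of arrays limits the precision. Array medians lay between 4.81 and 4.90. Nonspecific signal was read from 9 control probe sets without a mouse target, chosen by the GC content in their names. They averaged 3.65 to 4.05 in embryos and 3.70 to 4.08 in yolk sacs. Levels given relative to this signal depend on that choice. Lists of marker genes were summarised by their median level on each array. Visceral endoderm markers stood at 12.62 to 12.98 in yolk sacs. In embryos they stood at 5.12 to 5.98, except for control embryo 2 at 7.02, MEHP embryo 3 at 7.57 and MEHP embryo with NTD 2 at 6.83. Every control array precedes every MEHP array in the deposited table, and within MEHP the arrays without NTD precede those with NTD, so array order and group cannot be told apart.

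Macrophages of the early mouse conceptus arise first in the yolk sac, from erythro-myeloid progenitors in the blood islands, and later reach the embryo through the circulation, where some become the microglia of the brain. Their survival depends on CSF1 receptor signalling, and the transcription factor PU.1, encoded by Spi1, acts with Runx1 and C/EBP factors to switch on myeloid genes. Among the 10 genes, Csf1r, Csf2rb and Cx3cr1 encode receptors for growth factors or a chemokine, and Tyrobp and Fcer1g encode adaptors that carry the ITAM signalling motif. Ptprc encodes the leukocyte phosphatase CD45, Cd68 a lysosomal glycoprotein, Mrc1 the mannose receptor, and Mpo and Lyz2 the enzymes myeloperoxidase and lysozyme.

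Promoter sequence was available for 7 of the 10 genes, as 8 promoters, from RefSeq on build GRCm38.p6. The 250 bases before the start site are shown 5′ to 3′ along the gene for the 3 of these genes with the largest measured differences between tissues, since the core of the PU.1 site lies in each. Capitals mark that core, GAGGAA, or TTCCTC where it lies on the other strand.
Mrc1 (chr2:14229164-14229413, plus strand): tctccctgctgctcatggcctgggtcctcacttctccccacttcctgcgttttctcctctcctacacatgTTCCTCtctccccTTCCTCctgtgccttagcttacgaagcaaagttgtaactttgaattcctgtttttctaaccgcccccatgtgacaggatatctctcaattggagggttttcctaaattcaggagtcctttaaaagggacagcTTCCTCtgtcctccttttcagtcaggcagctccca
Cd68 (chr11:69666171-69666420, minus strand): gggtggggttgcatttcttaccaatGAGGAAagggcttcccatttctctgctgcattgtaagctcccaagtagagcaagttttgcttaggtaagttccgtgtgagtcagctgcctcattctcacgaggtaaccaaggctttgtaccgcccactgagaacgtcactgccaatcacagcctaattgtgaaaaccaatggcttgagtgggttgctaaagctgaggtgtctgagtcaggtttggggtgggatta
Mpo (chr11:87793534-87793783, plus strand): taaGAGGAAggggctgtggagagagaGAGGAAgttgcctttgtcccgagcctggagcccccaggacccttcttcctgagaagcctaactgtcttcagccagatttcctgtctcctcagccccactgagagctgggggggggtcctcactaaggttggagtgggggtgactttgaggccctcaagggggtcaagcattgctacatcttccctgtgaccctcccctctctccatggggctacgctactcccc
Mrc1 holds 3 matches, at -180 to -175, -167 to -162 and -35 to -30 from the start site. Mpo holds 2, at -247 to -242 and -224 to -219, and Cd68 holds 1, at -225 to -220. Searched on both strands, the core was found in 4 of the 8 promoters, in 45 of 91 promoters of other myeloid genes (49.5%) and in 23.3% of all 32851 promoters of this length. The Runx core TGTGGT was found in 2 of the 8 promoters, in 15.4% of those of other myeloid genes and in 14% of all, and the C/EBP core TTNNGNAA in 4 of the 8, in 40.7% and in 36.8%. None of the 7 PU.1 matches overlapped a match to the other 2 motifs. A match is a run of letters and not a measured binding site.

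The first question was where these genes were expressed, compared between control embryos and control yolk sacs without NTD (3 arrays each). All 10 genes were lower in the embryo, and all 10 passed the test (limma on all 20 arrays with 1 mean per group, Benjamini-Hochberg adjusted p under 0.05 over 20794 genes). In this comparison 51.3% of all genes passed in either direction and 22.8% passed as lower in the embryo. The median difference was -1.34 over the 10 genes and 0.03 over all genes. The control embryo arrays used here are those on which these genes had been seen to lie above exposed embryos, so this tissue difference is not wholly independent of how the genes were chosen. In whole tissue, fewer cells of a type and less RNA per cell cannot be told apart.

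**Figure D1:**
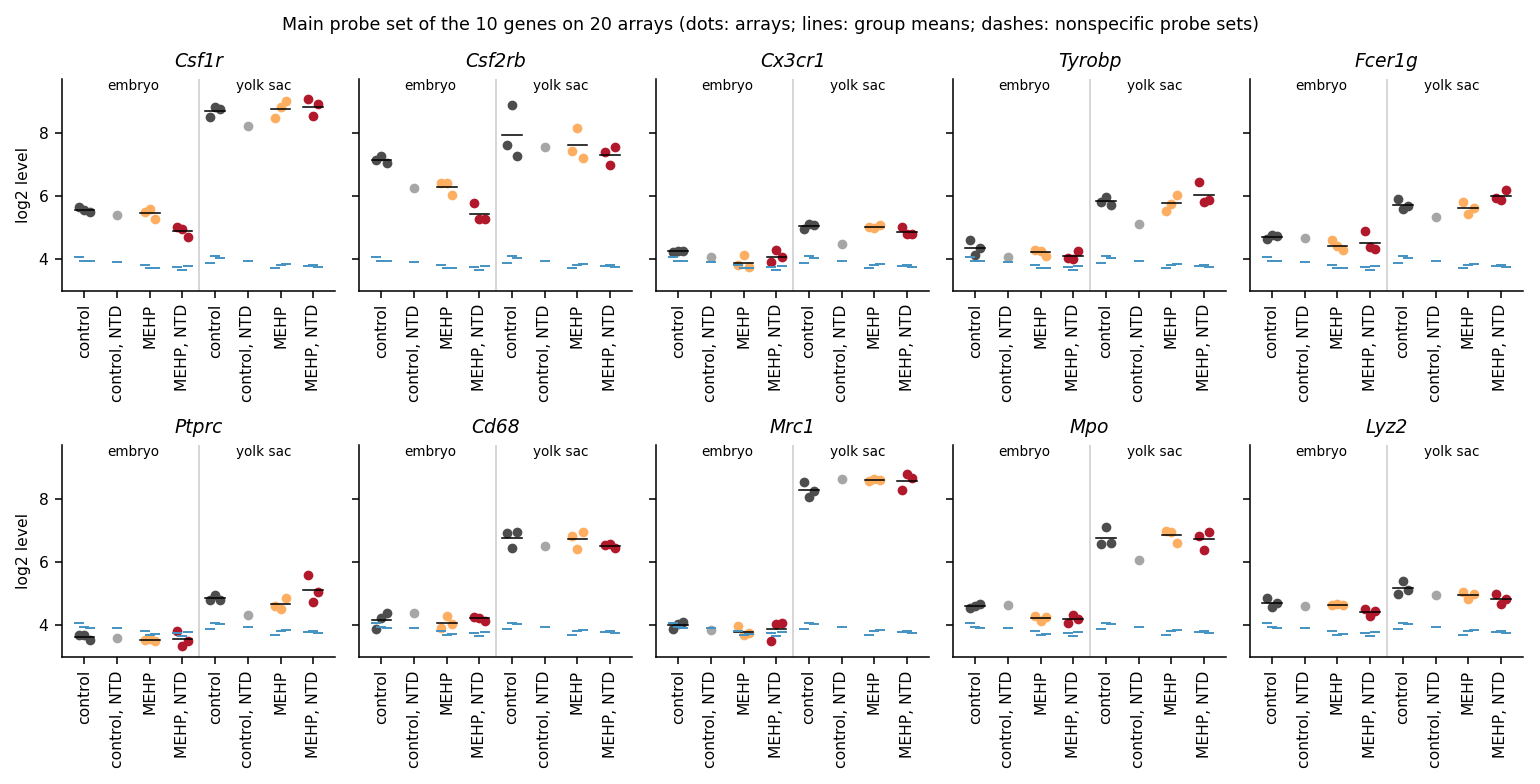
Log2 level (vertical axis) of the main probe set of each of the 10 genes on 20 arrays, by tissue and group (horizontal axis). Dots are arrays, black lines are means of groups of 3, and blue dashes are the mean of the nonspecific probe sets on the same array. Csf1r, Mrc1, Csf2rb, Cd68 and Mpo stand 2.13 or more above the nonspecific level on every yolk sac array, and in embryos Csf2rb and Csf1r are the genes clear of it on most arrays.

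Among the receptors, Csf1r, the receptor for the ligands CSF1 and IL-34, read 5.63, 5.54 and 5.5 in control embryos and 8.49, 8.80 and 8.74 in control yolk sacs. Every yolk sac array lay above every embryo array. The difference was -3.12 ± 0.14 (SE), 8.69-fold, with a limma adjusted p of 6.59e-12. The other 2 probe sets of Csf1r differed less, by -1.54 ± 0.11 and -0.52 ± 0.08. Cx3cr1, the receptor for the membrane-bound chemokine CX3CL1, read 4.21, 4.24 and 4.26 in control embryos and 4.96, 5.12 and 5.07 in control yolk sacs, a difference of -0.81 ± 0.10 (limma adjusted p = 2.16e-06). Its second probe set, which read 3.49 to 3.74 in these 6 arrays below the nonspecific level, went the other way, by 0.17 ± 0.07 (limma adjusted p = 0.0401). The direction for Cx3cr1 therefore rests on its main probe set.

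Csf2rb encodes the beta chain shared by the receptors for GM-CSF, IL-3 and IL-5. Its control embryos read 7.12, 7.25 and 7.05 and its control yolk sacs 7.61, 8.88 and 7.27. The groups did not overlap, but the yolk sac arrays were spread by more than 1 log2 unit, and control yolk sac 2 stood apart from the others. The difference was -0.78 ± 0.32 (limma adjusted p = 0.0486), and without that array it was -0.30 (limma adjusted p = 0.339). Leaving out each of the 6 arrays in turn, the call held in 2 fits, with adjusted p from 0.00771 to 0.339. The second Csf2rb probe set showed the same array apart, at 6.12 against 5.01 and 4.99, and so did Csf2rb2, the close paralog that encodes the mouse beta chain specific to IL-3, at 6.76 against 5.45 and 5.47. Primitive erythroid markers on that array had a median of 10.02, against 8.72 and 9.0 on the other 2. MEHP yolk sac 2, with an erythroid median of 10.09, read 8.15 for Csf2rb. MEHP yolk sac with NTD 1, with the highest median of 10.34, read 7.40. The part of erythroid cells in the Csf2rb values was not tested. Csf2rb and Csf2rb2 are similar in sequence, so signal shared between their probe sets is uncertain.

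The adaptors and the phosphatase CD45 were also lower in the embryo, each by less than Csf1r and by more than Cx3cr1. Tyrobp, also known as DAP12, differed by -1.47 ± 0.16 (limma adjusted p = 5.31e-07), with control embryos at 4.59, 4.11 and 4.36 and control yolk sacs at 5.80, 5.96 and 5.70. Fcer1g, the common gamma chain of Fc receptors, differed by -1.01 ± 0.14 (limma adjusted p = 8.48e-06). For Ptprc the difference was -1.22 ± 0.16 (limma adjusted p = 3.94e-06) on the main probe set, whose control embryo arrays lay below the nonspecific level, so that the yolk sac level was at least 1.84-fold higher. Its second probe set read 3.35 to 3.64 in both tissues and did not pass, at -0.09 ± 0.09 (limma adjusted p = 0.446).

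Mrc1 encodes an endocytic receptor for mannose-bearing glycoproteins that some endothelial cells also express. It read 3.87, 4.04 and 4.09 in control embryos and 8.54, 8.05 and 8.24 in control yolk sacs, a measured difference of -4.28 ± 0.15 (limma adjusted p = 2.1e-13). Relative to the nonspecific level the embryo arrays lay at -0.18 to 0.17, which makes this a bound. With each embryo array set at the higher of Mrc1 and the nonspecific mean, the yolk sac level was at least 18.6-fold higher. Cd68 read 3.89, 4.21 and 4.38 in control embryos against 6.90, 6.44 and 6.94 in control yolk sacs, a measured difference of -2.60 ± 0.15 (limma adjusted p = 1.27e-10). Relative to the nonspecific level its control embryos lay at -0.16 to 0.46, and computed the same way the yolk sac level was at least 5.86-fold higher. Mpo, the oxidant-producing enzyme of neutrophil granules and of their progenitors, read 4.53, 4.59 and 4.68 against 6.55, 7.11 and 6.59, a difference of -2.15 ± 0.15 (limma adjusted p = 1.81e-09). Lyz2, the lysozyme of macrophages and neutrophils, differed least, by -0.46 ± 0.11 (limma adjusted p = 0.00139), and its close paralog Lyz1 by -0.61 ± 0.21 (limma adjusted p = 0.0239), with shared signal between the pair uncertain. Apart from Csf2rb, the 9 other genes passed in every fit that left out 1 array.

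**Figure D2:**
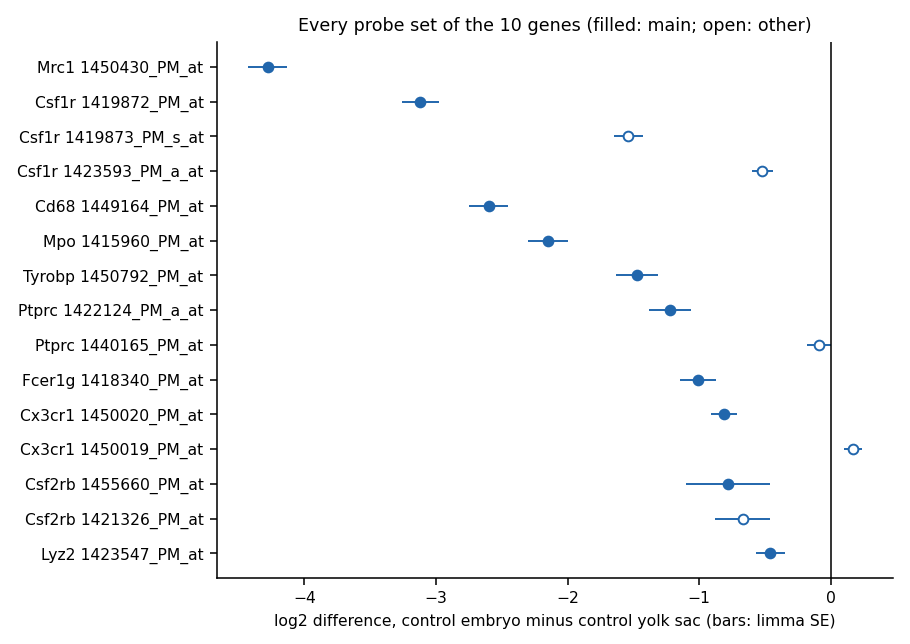
Log2 difference of control embryo minus control yolk sac (horizontal axis, 3 arrays each, bars are the limma SE) for each of the 15 probe sets (vertical axis). Filled points are main probe sets and open points the others; all 10 main probe sets lie left of 0, from -4.28 for Mrc1 to -0.46 for Lyz2, and the second probe set of Cx3cr1 lies right of it at 0.17.

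The name macrophage was set beside Adgre1, Itgam, C1qa, C1qb and Spi1, all but Spi1 picked after their values were seen. Other genes of the same lists differed by far more between the tissues and are given in the next paragraph. Adgre1, an adhesion receptor of mature macrophages, read 4.02 to 4.54 over all 20 arrays and did not differ between control tissues beyond the error, at 0.01 ± 0.09 (limma adjusted p = 0.946). Itgam, which encodes CD11b, read 3.49 to 3.96 over all 20 arrays, close to the nonspecific level. The complement genes C1qa and C1qb were lower in the embryo, by -0.31 ± 0.11 and -0.56 ± 0.13, but read no higher than 4.44 in any array. Spi1, which encodes PU.1, was lower in the embryo by -0.45 ± 0.10 (limma adjusted p = 0.000875), at 4.36 against 4.81. The 10 genes are named here by symbol, and no array was taken to measure macrophages as such.

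Of 104 other myeloid genes listed by role, 102 were measured. Between control tissues 44 were lower and 5 higher in the embryo, with a median of -0.19. Over all genes 22.8% passed as lower and 51.3% in either direction. Macrophage surface and lysosome genes gave 16 lower of 24, led by Lyve1, a hyaluronan receptor of lymphatic and yolk sac endothelium and of some macrophages, at -6.18 ± 0.17. The lysosomal protease gene Lgmn stood at -4.39 ± 0.12 and the scavenger receptor gene Cd36 at -1.91 ± 0.15. Leukocyte cytoskeleton and signalling genes gave 15 lower of 21, led by the actin-bundling gene Lcp1 at -5.24 ± 0.18 and the platelet and leukocyte gene Plek at -2.07 ± 0.23. Transcription factors gave 4 lower of 9, with Maf at -4.15 ± 0.15, Irf8 at -0.61 ± 0.09 and Cebpa at -0.56 ± 0.09 beside Spi1, and 1 higher, Myb at 0.48 ± 0.14. ITAM receptors and kinases gave 4 lower of 14, close to the share over all genes, led by the Fc receptor gene Fcgr3 at -3.21 ± 0.24. Each of these values passed the limma test.

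Ligands and receptors of growth factors were divided. Csf1, the ligand of the CSF1 receptor, was lower in the embryo by -0.65 ± 0.09 (limma adjusted p = 1.05e-05), while Kit and its ligand gene Kitl were higher, by 1.29 ± 0.11 and 0.79 ± 0.17. The chemokine Cxcl12 and its receptor Cxcr4 were also higher in the embryo, by 2.49 ± 0.19 and 2.98 ± 0.23, and all 4 of these passed. Neither Il34 (0.08 ± 0.10), Csf2ra (0.20 ± 0.10), Csf2rb2 (-0.57 ± 0.25) nor Cx3cl1 (-0.03 ± 0.09) passed. Visceral endoderm, an absorptive epithelium rich in lysosomes, moved with the tissue: all 10 of its markers were lower in the embryo, with a median difference of -6.99. Megakaryocyte markers had a median of -0.68 (7 of 10 passed as lower, among them Ppbp at -1.20 and Itgb3 at -1.13), erythroid markers -0.68 (2 of 10 lower) and endothelial markers -0.47 (6 of 10 lower and 2 higher). Embryo-proper markers were higher in the embryo in 9 of 10 cases, while lymphoid markers gave 1 higher and 1 lower of 10 and trophoblast and decidua markers 1 higher and 2 lower of 9. These counts stand beside 22.8% of all genes that passed as lower and 51.3% in either direction. The part of these cell types in the difference of any of the 10 genes was not tested.

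The second question was whether MEHP or NTD changed the 10 genes in the yolk sac, where most of them stood clear of the nonspecific level. None of the 10 passed in any of the 3 comparisons (limma on the 10 yolk sac arrays). With MEHP against control, both without NTD, 0.313% of all genes passed. With NTD against without, both under MEHP, 0% passed, and with MEHP and NTD against control, 2.38% passed. At an unadjusted p under 0.05 the counts among the 10 genes were 1, 2 and 3, and over all genes 3554, 2002 and 4327.

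Mrc1 came nearest in the first comparison, with 8.54, 8.05 and 8.24 in controls and 8.57, 8.63 and 8.59 under MEHP. The MEHP arrays lay just above the highest control, a difference of 0.32 ± 0.14 (limma adjusted p = 0.276). In the second, Fcer1g read 5.80, 5.43 and 5.62 without NTD and 5.94, 5.86 and 6.18 with it, a difference of 0.38 ± 0.12 (limma adjusted p = 0.351), and the groups did not overlap. Ptprc read 4.59, 4.52 and 4.87 without NTD and 5.57, 4.74 and 5.04 with it, at 0.45 ± 0.18 (limma adjusted p = 0.46), with overlap. In the third, Lyz2 differed by -0.34 ± 0.12 (limma adjusted p = 0.135), from 4.99, 5.40 and 5.11 in controls to 4.98, 4.68 and 4.82 with MEHP and NTD.

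Csf1r in the yolk sac overlapped the controls in both MEHP groups, at 8.45, 8.81 and 8.99 under MEHP and 9.05, 8.53 and 8.89 with MEHP and NTD. Its difference from control was 0.07 ± 0.16 without NTD and 0.15 ± 0.16 with it. Mpo differed from control by 0.09 ± 0.18 and -0.03 ± 0.18. For Csf2rb the main probe set differed by -0.32 ± 0.38 and -0.62 ± 0.38, with the wide errors that control yolk sac 2 brings, and the second probe set by -0.59 ± 0.25 (limma adjusted p = 0.254) and -0.79 ± 0.25 (limma adjusted p = 0.116). A test that was not passed does not show that the yolk sac values were unaffected. Of the 102 other myeloid genes, 0 passed in each of the 3 comparisons, with medians of -0.06, 0.04 and 0.01 against -0.02, 0.01 and -0.01 over all genes.

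The third question was the level of the 10 genes in embryos, and here the values are given as a description without a test, because embryo results were known when the genes were chosen. Csf2rb, Csf1r and Mpo had the largest differences from control in MEHP embryos with NTD, while without NTD Csf2rb, Mpo and Cx3cr1 did. Over all genes, 9.72% passed the limma test for MEHP against control embryos, both without NTD. The share was 7.45% for MEHP embryos with NTD against control and 0.024% for NTD within MEHP embryos. For the reason given, no such count is made for the 10 genes. The comparisons share arrays, so their values are set side by side only.

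Csf2rb read 7.12, 7.25 and 7.05 in control embryos, 6.41, 6.39 and 6.01 in MEHP embryos, and 5.78, 5.25 and 5.27 in MEHP embryos with NTD. The 3 groups did not overlap, and the steps between them were of similar size, -0.87 ± 0.15 from control to MEHP and -0.84 ± 0.15 from MEHP to MEHP with NTD. The control embryo with NTD, which had no MEHP, read 6.23 and lay within the range of the MEHP embryos without NTD. The second probe set of Csf2rb, which lay nearer the nonspecific level, held the first step (-0.45 ± 0.08) but not the other (-0.05 ± 0.08). Its values were 4.61, 4.72 and 4.78 in controls, 4.27, 4.32 and 4.17 under MEHP, and 4.25, 4.10 and 4.25 with MEHP and NTD.

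Csf1r showed another order. Control embryos read 5.63, 5.54 and 5.5 and MEHP embryos 5.5, 5.58 and 5.27, which overlap, while MEHP embryos with NTD read 5.02, 4.96 and 4.68, below all of them. The differences were -0.11 ± 0.11 for MEHP without NTD, -0.56 ± 0.11 for NTD within MEHP and -0.67 ± 0.11 for both against control. The 3 probe sets of Csf1r did not share this pattern: for MEHP with NTD against control the others gave -0.28 ± 0.10 and -0.06 ± 0.07, and for NTD within MEHP -0.02 ± 0.10 and 0.10 ± 0.07.

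Mpo read 4.53, 4.59 and 4.68 in control embryos, 4.30, 4.13 and 4.27 under MEHP, and 4.07, 4.33 and 4.18 with MEHP and NTD. Both MEHP groups lay below the controls and overlapped each other, with differences from control of -0.36 ± 0.09 and -0.40 ± 0.09. Across the 10 embryo arrays Mpo was only 0.33 to 0.76 above the nonspecific probe sets, whose own mean was lower by 0.23 in MEHP embryos and by 0.24 in MEHP embryos with NTD than in controls. The part of nonspecific signal in the Mpo values was not tested. Csf2rb stood 1.49 to 3.32 and Csf1r 0.90 to 1.87 above that level.

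**Figure D3:**
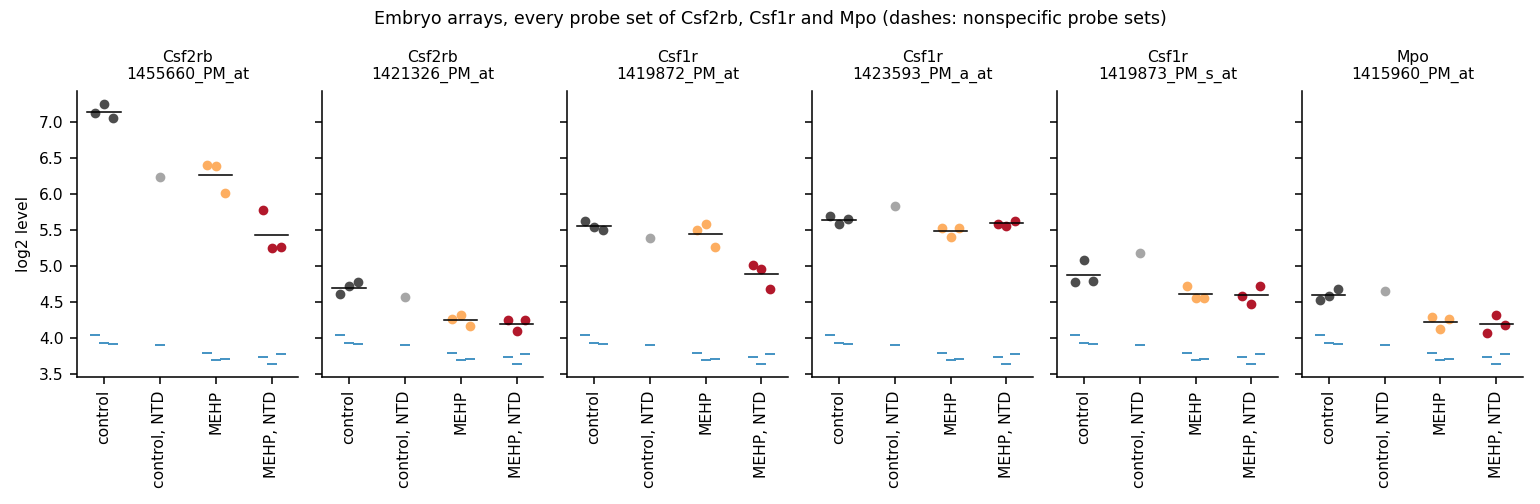
Log2 level (vertical axis) on the 10 embryo arrays by group (horizontal axis) for every probe set of Csf2rb, Csf1r and Mpo. Dots are arrays, black lines are means of groups of 3 and blue dashes are the nonspecific level of the same array; the main Csf2rb probe set falls from 7.14 to 6.27 and 5.43 in group means, while the other Csf2rb probe set and 2 of the 3 Csf1r probe sets show no step between the MEHP groups.

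The 7 other genes were dim in embryos. Cx3cr1, Ptprc, Tyrobp, Cd68, Mrc1 and Lyz2 lay within 1 log2 unit of the nonspecific level on all 10 embryo arrays and Fcer1g on 9. Differences of MEHP embryos from control without NTD ran from -0.35 ± 0.11 for Cx3cr1 and -0.29 ± 0.14 for Fcer1g to -0.06 ± 0.09 for Lyz2. With MEHP and NTD they ran from -0.28 ± 0.09 for Lyz2 to 0.05 ± 0.13 for Cd68. Several of these are no larger than the shift of the nonspecific level itself. The median over the 10 genes was -0.17 for MEHP and -0.22 for MEHP with NTD, against -0.04 and -0.05 over all genes. Choosing the genes with embryo results known favours such a gap, so nothing is read from it.

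Cell type markers moved in embryos too. Primitive erythroid markers had medians of 8.37, 8.39 and 8.31 in control embryos, 8.33, 8.65 and 7.72 under MEHP, and 8.99, 7.41 and 7.43 with MEHP and NTD. On the last 3 arrays Csf2rb was highest where the erythroid median was highest. That array, at 8.99, had the highest erythroid median of all embryo arrays. Its Csf2rb of 5.78 lay below every control embryo, which read 7.05 to 7.25. All 10 erythroid markers were lower in MEHP embryos with NTD than in controls, and none passed. In MEHP embryos without NTD, 1 of 10 visceral endoderm markers rose, Lrp2 by 1.01 (limma adjusted p = 0.00518), and the list median was 0.39. Of the megakaryocyte markers 2 of 10 fell, among them Gp1bb by 0.60 (limma adjusted p = 0.0119), and the median was -0.19. Of the embryo-proper markers Pax3 rose by 0.49 and Tnnt2 by 0.39 while Meox1 fell by 0.25 (limma adjusted p = 0.0074, 0.0164 and 0.0465). Lymphoid markers fell in 2 of 10 cases and trophoblast and decidua markers in 4 of 9, where 5.90% of all genes fell. These lymphoid and trophoblast genes were dim, from 3.47 (Ctsj) to 4.74 (Cd79a) in control embryos. They fell by 0.30 (Ctsj) to 0.50 (Prl7b1), while the nonspecific level was lower by 0.23. No erythroid or endothelial marker passed. With MEHP and NTD, Lrp2 was again the 1 visceral endoderm marker to rise and 2 megakaryocyte markers fell. Of the embryo-proper markers Tnnt2 rose by 0.72, Myl7 by 0.59 and Otx2 by 0.40 (limma adjusted p = 0.00249, 0.0104 and 0.0297), and 1 endothelial marker rose and 1 lymphoid marker fell. Without the 3 embryo arrays of high visceral endoderm signal, a choice made after seeing the data, Csf2rb differed from control by -0.69 under MEHP and -1.56 with MEHP and NTD, Csf1r by -0.71 with MEHP and NTD, and Mpo by -0.39 and -0.48. The part of any of these cell types in the values of the 10 genes was not tested.

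The MEHP difference in embryos minus that in yolk sacs, both without NTD, was -0.55 ± 0.45 for Csf2rb, -0.52 ± 0.22 for Mrc1 and -0.46 ± 0.22 for Mpo. One side of it is the embryo comparison known when the genes were chosen, so these values are a description. Over all genes 0.0769% passed for this difference between tissues (limma). None of the 102 other myeloid genes passed, and the number over all genes at an unadjusted p under 0.05 was 2715.

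The other myeloid genes were tested in embryos over all 102 measured. Their lists were also drawn up with earlier results of these data known, so the counts are not independent of that choice. With MEHP and no NTD, 14 fell and 1 rose, where 5.90% of all genes fell and 3.82% rose. With MEHP and NTD against control, 11 fell and 0 rose, where 4.24% of all genes fell and 3.21% rose. The medians were -0.13 and -0.16, against -0.04 and -0.05 over all genes. Between MEHP embryos with and without NTD none passed (limma, with 1177 of all genes at an unadjusted p under 0.05).

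Csf2rb2 fell in MEHP embryos with NTD, by 0.68 ± 0.14 (limma adjusted p = 0.0262), from 5.17, 5.35 and 5.46 in controls to 4.54, 4.86 and 4.55. Without NTD its difference was -0.44 ± 0.14 (limma adjusted p = 0.0752), with values of 5.09, 4.57 and 5.0. It was the 1 gene to pass of 14 ligands and receptors of growth factors. Csf1 differed by 0.07 ± 0.09 and -0.06 ± 0.09 in the 2 comparisons, and Csf2ra, the alpha chain of the GM-CSF receptor, by -0.03 ± 0.11 and 0.00 ± 0.11. Il34 differed by -0.31 ± 0.10 (limma adjusted p = 0.079) and -0.20 ± 0.10, Cx3cl1 by -0.13 ± 0.09 and -0.18 ± 0.09, and none of these passed.

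Cytoskeleton and signalling genes of leukocytes fell in 5 of 21 cases under MEHP and 4 of 21 with MEHP and NTD. Over all genes 5.90% and 4.24% fell. Nckap1l, a subunit of the WAVE complex of blood cells, fell by 0.44 ± 0.10 and 0.54 ± 0.10 (limma adjusted p = 0.0268 and 0.0186). Vav1, an exchange factor for Rac, fell by 0.51 ± 0.12 and 0.45 ± 0.12, and Was, the Wiskott-Aldrich protein, by 0.40 ± 0.11 and 0.49 ± 0.11. Alox5ap, needed for leukotriene synthesis, fell by 0.41 ± 0.10 and 0.46 ± 0.10. In the same list Lcp1 rose under MEHP, from 4.87, 5.23 and 5.41 to 5.92, 6.16 and 6.24, by 0.94 ± 0.21 (limma adjusted p = 0.0252). The control embryo with NTD read 6.21 for Lcp1 and control yolk sacs 10.27 to 10.67, and with MEHP and NTD the difference was 0.51 ± 0.21 (limma adjusted p = 0.144).

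ITAM receptors fell in 2 of 14 cases in each comparison, the beta-glucan receptor gene Clec7a by 0.48 ± 0.10 and 0.53 ± 0.10 and the inhibitory Fc receptor gene Fcgr2b by 0.47 ± 0.12 and 0.43 ± 0.12. Transcription factors fell in 2 of 9, Runx1 by 0.34 ± 0.09 and 0.38 ± 0.09 and Cebpa by 0.28 ± 0.08 and 0.37 ± 0.08, while Spi1 did not pass at 0.06 ± 0.08 and -0.06 ± 0.08. Of the chemokine list, Ccl3 fell by 0.34 ± 0.06 and 0.30 ± 0.06. Macrophage surface and lysosome genes fell in 3 of 24 under MEHP, among them Mpeg1 by 0.37 ± 0.08, and in 0 of 24 with MEHP and NTD. Granule proteins fell in 0 of 12 under MEHP and in 1 with MEHP and NTD, Ltf by 0.36 ± 0.09. All the falls named in these lists passed the limma test. The nonspecific level was itself lower by 0.23 and 0.24 in these 2 MEHP groups. With that level as a covariate none of the 102 genes passed in either comparison. That level was 3.92 to 4.05 in control embryos and at most 3.80 and 3.78 in the MEHP groups, without overlap. Such a fit can hardly separate the level from exposure, so nothing about the source of the falls is read from it.

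**Figure D4:**
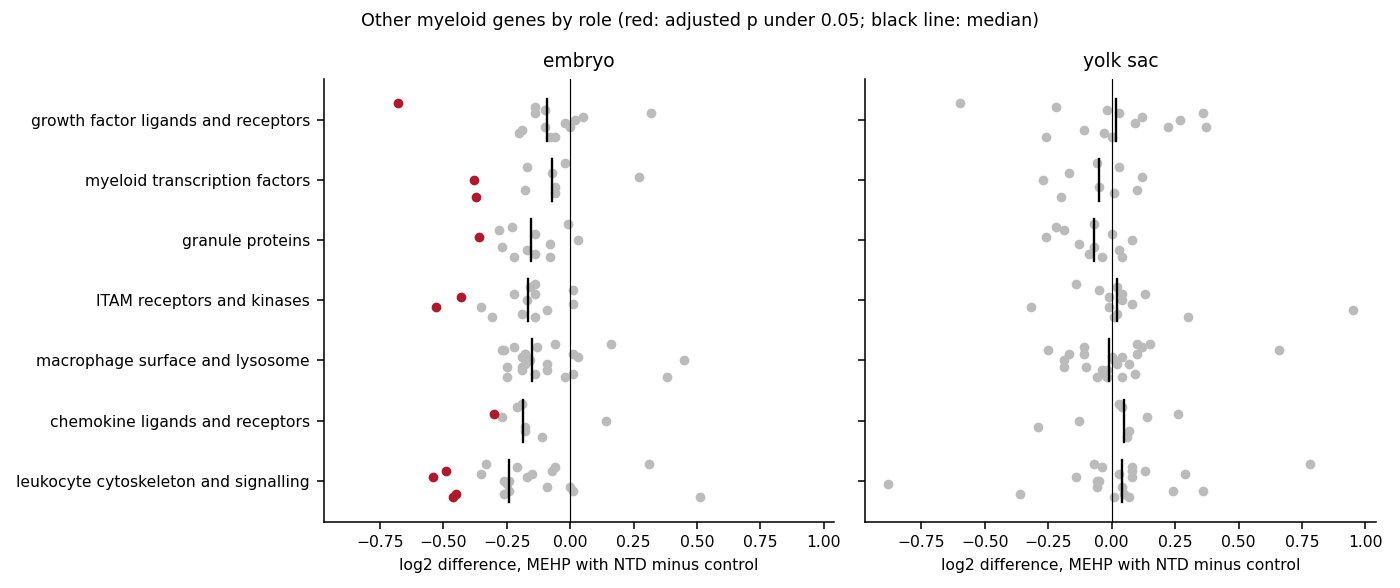
Log2 difference of MEHP with NTD minus control (horizontal axis) for 102 other myeloid genes in 7 role lists (vertical axis), in embryos and in yolk sacs. Each dot is a gene, red where the limma adjusted p is under 0.05, and black lines are list medians; 11 embryo dots are red, all left of 0, and no yolk sac dot is.

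These embryo counts rested on few arrays. Under MEHP without NTD the 15 genes became 2 without control embryo 1, 5 without control embryo 2, 17 without control embryo 3, 3 without MEHP embryo 1, and 0 without MEHP embryo 2 or without MEHP embryo 3. With MEHP and NTD the 11 became 3, 2 and 12 without control embryos 1, 2 and 3, and 6, 1 and 2 without MEHP embryos with NTD 1, 2 and 3. Without the 3 arrays of high visceral endoderm signal both counts were 0. Each of these fits holds fewer arrays for every gene, and whether the loss of calls is particular to the myeloid genes was not tested.

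The control arrays with NTD, 1 in each tissue, allow no test. In the yolk sac that array lay below all 3 controls for 7 of the 10 genes, where 29.5% of all genes did, with Tyrobp at 5.10 against 5.70 to 5.96 and Mpo at 6.06 against 6.55 to 7.11. Mrc1 lay above, at 8.61 against 8.05 to 8.54. The median difference over the 10 genes was -0.43. In the embryo the array lay below all 3 controls for 5 of the 10 genes, where 22.3% of all genes did, and Csf2rb was the farthest, by -0.91. The same 3 control embryos had entered the choice of the genes, so this embryo count is not independent of that choice.

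Within a tissue the 10 genes did not move as a block. Over the 45 pairs, Pearson r across 10 embryo arrays ran from -0.56 to 0.89 with a median of 0.26, and across 10 yolk sac arrays from -0.88 to 0.91 with a median of 0.14. In yolk sacs the closest pairs were Ptprc with Tyrobp (r = 0.91) and Csf1r with Tyrobp (r = 0.87), and in embryos Csf1r with Csf2rb (r = 0.89). Mrc1 and Lyz2 ran opposite in yolk sacs (r = -0.88). After each tissue's mean was subtracted, the genes most like Csf2rb over the 20 arrays were Sgo2a (r = 0.89), Crlf3 (r = 0.84) and Plin2 (r = 0.83), those most like Csf1r were Uqcrb (r = 0.80), Cited4 and Ikzf1 (r = 0.76 each), and those most like Mpo were Trp53i11 (r = 0.81), Lpl (r = 0.77) and Mknk2 (r = 0.76). These arrays share exposure and NTD groups, so the coefficients are descriptions.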

How the data were processed

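The submitters' processing notes name RMA, limma and R 2.15.1, with no order of steps. The deposited expression table holds log2 levels of 45141 probe sets on 20 arrays. The deposited comparison tables hold the authors' log2 differences, fold changes (ratios) and p-values, used here to map arrays to groups. Array headings in the expression table carry no group: of 1022 possible splits per comparison table, the split used matched the authors' deposited log2 differences within 6.44e-15, and the next best left an error of at least 0.397. A second deposited table holds identical log2 values under headings that would give 13 of 20 arrays another group and 8 another tissue; it served only as an alternative. Numbers of arrays follow the order of columns and serve as names only.

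From 38367 probe sets with 1 symbol (leaving aside 104 control and 6670 unnamed probe sets), the probe set with the highest mean stood for each of 20794 genes. Symbols were updated through Entrez ID for 35403 of these probe sets with the RefSeq gene table, and the 2964 others kept the deposited symbol. Differences were tested with limma 3.58.1 in R 4.3.3 (lmFit, eBayes, 1 mean per group), on the 10 arrays of a tissue, or all 20 for comparisons across tissues, with Benjamini-Hochberg adjustment and a threshold of 0.05. Further probe sets of a gene come from the same fit over all 38367. Fits were tested on simulated data. The 10 genes and all gene lists were chosen with earlier results of these data known, so embryo comparisons of the 10 genes carry no test. Embryo counts for the lists are not independent of that choice. Named beside them were, by rule, up to 10 other genes per comparison with the largest differences among those that passed, along with Csf1, Il34, Csf2ra, Csf2rb2, Cx3cl1 and Spi1, and the 3 genes of highest Pearson r per gene among those at or above the median level (5.72); Adgre1, Itgam, C1qa, C1qb, the marker genes and a few further genes that passed (Irf8, Kit, Kitl, Myb, Lyz1) were added after their values were seen. Alternatives covered normalization, dim genes, variance prior, arrays in the fit, probe sets, headings, nonspecific signal and single arrays. Some genes of the lists are not reported here by name.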

Additional observations from a re-analysis of the deposited data

Results flagged for a closer look

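Mrc1 differed from control with opposite signs in the 2 tissues under MEHP without NTD, by -0.20 in embryos and 0.32 in yolk sacs. In the limma fit over all genes the difference between the tissues was -0.52 ± 0.22 and did not pass (adjusted p = 0.325, and 0.26 to 0.509 in the 12 fits that left out 1 array). Embryo results were known when the gene was chosen, and its embryo arrays lay at the nonspecific level. Cd68 likewise differed by 0.13 between MEHP embryos with and without NTD and by -0.22 between the matching yolk sacs, which was not tested. No formal outlier test was run, since groups held 3 arrays or 1; control yolk sac 2 stood apart for Csf2rb, and fits without each single array were run.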

How the results depend on the processing

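No paired analysis was possible because the array columns carry no replicate number. No member passed in any of the 3 yolk sac comparisons under the alternatives, including every fit without 1 array (0 to 0 members), except that the headings of the second table gave 9 for NTD in MEHP yolk sacs; those headings mix tissues. For control embryo against yolk sac, 10 members became 3 without dim genes, since 7 members then were not tested, 0 with the second table's headings, and 9 to 10 without 1 array. Other myeloid genes passing under MEHP in embryos (15) were 5 with cyclic loess, 1 without dim genes, 31 with those headings, 0 with nonspecific level as covariate, 0 without the 3 arrays of high visceral endoderm signal (added after seeing the data), and 0 to 17 without 1 array. For MEHP with NTD (11) they were 5, 0, 0, 0 and 0 under the same settings in that order, 2 with only the arrays compared, and 1 to 12 without 1 array. For NTD in MEHP embryos the count stayed at 0 (0 to 0 without 1 array), and for the embryo minus yolk sac difference it was 0 to 0 without 1 array and 47 with the headings. With those headings signs turned for NTD in MEHP yolk sacs (Csf2rb 1.87, Mpo 2.52, Cd68 2.30, Mrc1 4.71, Lyz2 0.40), MEHP in embryos (Csf2rb 0.78, Mpo 2.15) and MEHP embryos with NTD against control (Csf1r 0.87, Mpo 0.23); between control tissues the second Cx3cr1 probe set gave 0.17. The tissue call for Csf2rb was lost with quantile normalization (adjusted p = 0.0564), a trended robust prior (0.0801), only the arrays compared (0.102), the nonspecific covariate (0.0625) and without the 3 arrays (0.0853). The nonspecific level did not overlap between control and MEHP embryos, so a fit with that covariate can hardly separate it from exposure. The causes were not tested. The 7 members within 1 log2 unit of nonspecific signal on every embryo array limit what embryos can show.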
